A study of Mus musculus with 7 samples.

Results

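The 96 genes described here are those whose share of all H3K27me3 reads counted over gene bodies was more than 3 times as large at postnatal day 17 (P17) as at postnatal day 12 (P12) in mouse spermatocytes. They were taken from 18923 gene symbols that were listed once in both count files and had at least 100 reads over both stages, out of 23220 symbols listed once, so that 0.507% of the symbols with enough reads are members. A further 12 symbols passed the same limits but belong to the replication-dependent histones, the immediate-early families and the Prader-Willi region that were set aside by name, and with them the percentage is 0.571%. Because the ratio of P17 to P12 chose these genes, their ratios are given as a description and carry no test.

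Chromatin came from spermatocytes of wild-type CD1 mice, isolated from the testis by digestion and a Percoll step, fixed with formaldehyde and immunoprecipitated with an antibody to H3K27me3, at P17 as 1 file that pools 2 replicates and at P12 as 1 file from 1 library. Both groups share strain, genotype and cell preparation. They differ in age, and also in immunoprecipitation, library, pooling and depth, so age cannot be told apart from these. The series holds 7 samples, and gene-body counts of these 2 were used here with 1 file each, so differences between them have no replicate check, and all intervals below cover counting error only. The peak lists of the series were not used here. The labelled cell type cannot be checked against expressed markers, since the files record a chromatin mark. The input libraries were not analysed here, so enrichment over background was not measured at either stage.

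H3K27me3 is placed on nucleosomes by Polycomb repressive complex 2 (PRC2) and is found mainly over silent developmental genes with promoters rich in CG dinucleotides, where it can spread across the gene. In the male germ line, PRC2 is known for keeping somatic genes silent. Between these ages the testis passes from early meiotic cells to pachytene spermatocytes, in which homologous chromosomes have paired. Reads over a gene body include both mark-enriched fragments and background, and the count grows with the length of the gene. A level set beside that of other genes therefore also carries gene length, which was not corrected for. The ratio of stages within a gene compares the same stretch, but background in a long gene can dilute a local change. Ratios set beside those of other genes can therefore carry length too, and this was not tested.

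The files held 26664736 reads at P17, against 13462873 at P12, over 23530 entries each. Levels are given in CPM, the count as a share of the total of its file scaled to 1000000 reads, with no division by gene length. Across the 18923 symbols the ratio of P17 to P12 had a median of 0.949, the 10th percentile being 0.809 and the 90th 1.38. A ratio of 0.75 to 1 was the commonest class, with 58.9% of the symbols. The spread was uneven around it: 498 symbols (2.63%) stood above a ratio of 2, while 4 stood below 0.5 and 0 below 0.333, the lowest ratio being 0.411.

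The median level of the members was 17.8 CPM at P17, against 4.90 CPM at P12, on 475.5 and 66 reads. The same medians over all 18923 symbols were 19.2 CPM at P17, against 18.8 CPM at P12. At P17, 41 of the 96 members lay above the median of all symbols, against 4 of 96 at P12. Together they took 0.230% of the reads at P17, against 0.0627% at P12 (61240 and 8438 reads), a ratio of 3.66 for the sums. Only 9 members exceeded 50 CPM at P17, and 24 stayed under 10 CPM there. At P12, 50 were under 5 CPM. The rule can pick a gene at any depth above its minimum, and members made up 0.0705% of the genes with 2000 or more reads (3 of 4254), against 0.755% of those with 200 to 500 reads and 0.470% of those with 100 to 200 reads.

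**Figure D1:**
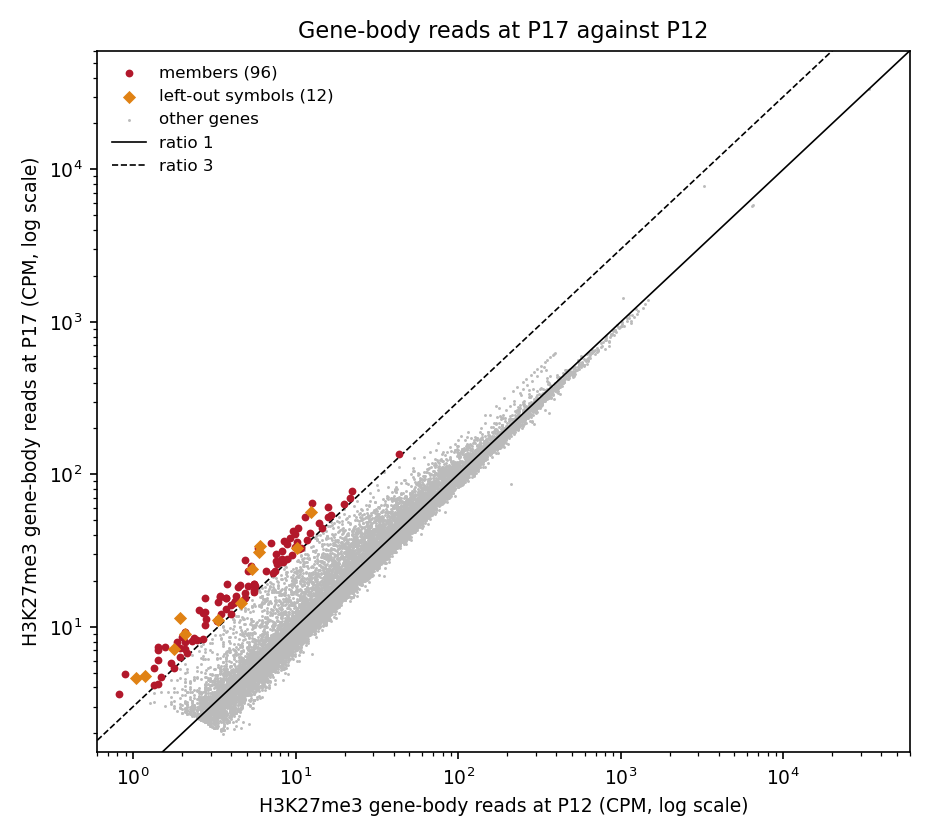
H3K27me3 gene-body reads at P17 (vertical axis) against P12 (horizontal axis), in CPM on log scales, for the 18923 symbols with at least 100 reads. The 96 members (red) and the 12 symbols set aside by name (orange diamonds) lie above the dashed line of ratio 3, and the cloud of other genes (grey) follows the line of ratio 1; the members range between 3.60 and 135 CPM at P17 and between 0.817 and 43.1 CPM at P12.

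Ratios of the members ran between 3.003 and 5.663 with a median of 3.53; 50 were above 3.5, 34 above 4 and 9 above 5. For 34 members the whole 95% interval lay above 3, and for 92 it lay above 2. The intervals come from the same counts that chose the members and do not allow for that choice, so they can lie too high. The widest uncertainty belonged to genes with few P12 reads, and 36 members had under 50. Just inside the fold limit were Dcxr at 3.04, Psme1 at 3.03 and Gm4971 at 3.003, and just outside it were Gltpd2 at 2.997, Lzts2 at 2.99 and the Notch-target repressor gene Hes1 at 2.99. The limit therefore cuts through a continuous range. Just inside the read limit were Mir1901, Gstp2 and Gm4971 with 107, 129 and 132 reads over both stages, and just outside it LOC100504703, Gm4532 and Mir1904 with 88, 83 and 49 reads and ratios of 3.20, 3.69 and 3.62. The members were sorted by what their products are known to do, after they had been chosen. The 21 RIKEN, predicted and microRNA entries had the most members and a median ratio of 4.19, while the 10 genes of transcription and growth control had a median of 3.69 and the 12 receptors, channels and surface proteins one of 3.39.

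**Figure D2:**
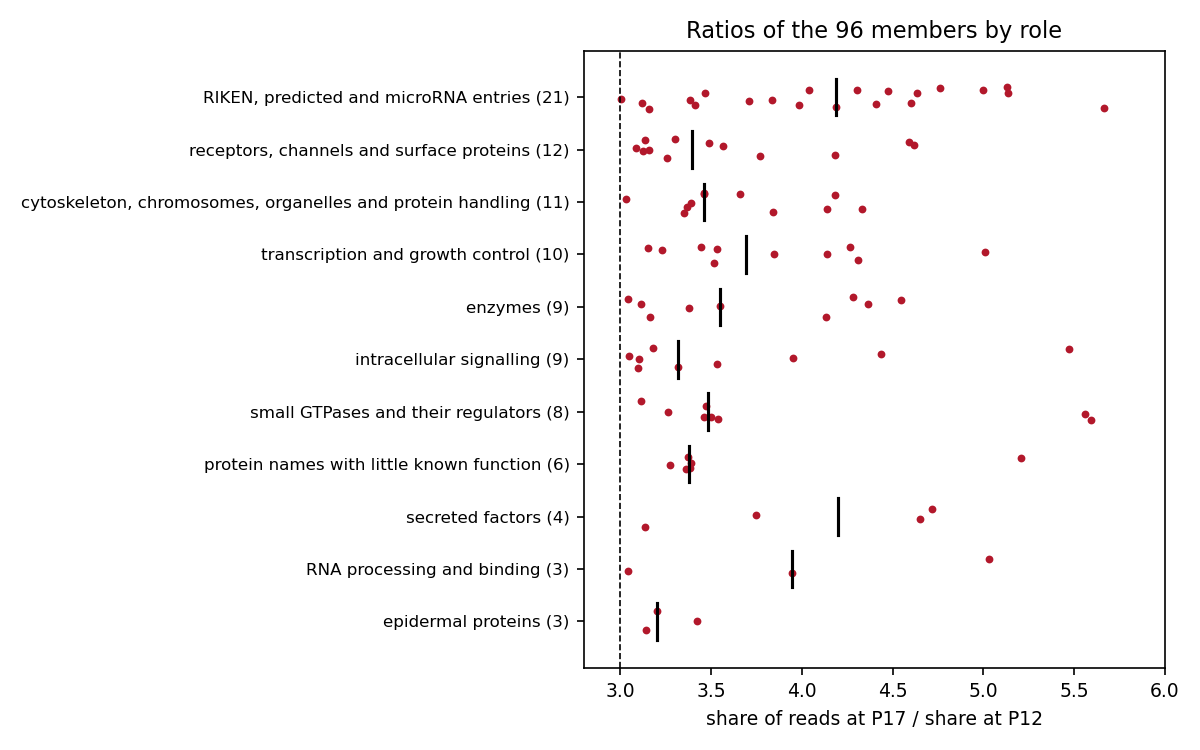
Ratio of the share of H3K27me3 reads at P17 to that at P12 for each of the 96 members (red points), grouped by role with the number of members in brackets, and the median of each group (black bar). All points lie right of the dashed line because a ratio above 3 is the rule; the lowest ratio in every role is 3.28 or less, and the points above 5 are spread over 6 of the 11 roles.

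Small GTPases of the Ras superfamily, molecular switches of membrane traffic, adhesion and the cytoskeleton, gave 7 members and their regulators 1. Rab34, which acts in the building of the primary cilium, held 875 reads at P17, against 79 at P12, or 32.8 and 5.87 CPM, a ratio of 5.59 (95% interval 4.44 to 7.13). For Rap2b, a Ras relative that signals to the cytoskeleton, the counts were 727 at P17, against 66 at P12, or 27.3 and 4.90 CPM, and the ratio was 5.56 (4.32 to 7.27). These were the highest ratios of any protein-coding member. Next in this group came Rgl2, an activator of Ral GTPases, at 3.54, with 617 reads at P17 against 88 at P12. Rasd1, a glucocorticoid-induced Ras protein, stood at 3.499, with 395 reads at P17 against 57 at P12. Rasl11a stood at 3.47, and Rasl10a had the lowest ratio of the group at 3.11. By symbol, 125 small GTPase genes had at least 100 reads, so 5.6% of them were members, beside 0.507% of all symbols. Their median ratio was 0.981, beside 0.949 for all symbols, and 14 of the 125 (11.2%) stood above 2, beside 2.63% of all symbols.

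Genes of transcription and growth control gave 10 members, with ratios between 3.15 and 5.01. Cited2, a coactivator that binds CBP and p300 and is needed for heart and gonad development, had 943 reads at P17, against 95 at P12, or 35.4 and 7.06 CPM, and a ratio of 5.01 (4.06 to 6.26). Hes7, an oscillating repressor of the somite clock, had 973 reads at P17, against 114 at P12, or 36.5 and 8.47 CPM, at a ratio of 4.31 (3.55 to 5.28). Msgn1, a factor of the presomitic mesoderm in which that clock runs, had fewer reads, 191 at P17 against 28 at P12, and stood at 3.44 (2.31 to 5.32). Sox4, an HMG-box factor of progenitor cells, reached 1090 reads at P17, against 133 at P12, with a ratio of 4.14 (3.45 to 4.99). The intervals of Cited2, Hes7 and Sox4 overlap, and differences between their ratios were not assessed. Bmyc, a Myc relative, stood at 4.26 on 228 reads at P17, against 27 at P12. Erf, an ETS-domain repressor controlled by MAP kinase, stood at 3.84 with 60.8 CPM at P17, against 15.8 CPM at P12. The LIM-only gene Lmo4 had the most reads of the group, 2069 at P17 against 297 at P12, or 77.6 and 22.1 CPM, at 3.52. Irf2bpl followed with 69.8 CPM at P17, against 21.6 CPM at P12, at 3.23. The growth-arrest genes Btg2 and Gadd45g stood at 3.53 and 3.15.

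Among 12 genes of receptors, channels and surface proteins, the chemokine receptor gene Cxcr4, which guides migrating primordial germ cells in the embryo, stood highest. It held 622 reads at P17, against 68 at P12, or 23.3 and 5.05 CPM, a ratio of 4.62 (3.59 to 6.02). Tnfrsf12a, the receptor for the cytokine TWEAK, had 418 reads at P17, against 46 at P12, and a ratio of 4.59 (3.38 to 6.36). The potassium channel gene Kcna3, known from T cells, had 1027 reads at P17, against 124 at P12, or 38.5 and 9.21 CPM, at 4.18 (3.47 to 5.08). Both Wnt receptor genes among the members had lower ratios, Fzd4 at 3.56 with 27.002 CPM at P17 against 7.58 CPM at P12, and Fzd5 at 3.26 with 53.9 CPM at P17 against 16.6 CPM at P12. S1pr1, the sphingosine-1-phosphate receptor of vessels and lymphocytes, stood at 3.12, and the receptor gene Gpr15, on 170 reads at P17 against 26 at P12, at 3.30. The blood-cell surface genes Icam4, Sit1 and G6b stood at 3.49, 3.14 and 3.09, the tetraspanin gene Cd63 at 3.16, and the olfactory receptor gene Olfr314 at 3.77.

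Secreted factors gave 4 members. Fgfbp3, which encodes a binding protein of fibroblast growth factors, had 663 reads at P17, against 71 at P12, and a ratio of 4.71 (3.69 to 6.11). Ntf5, the neurotrophin-4 gene, had 1409 reads at P17, against 153 at P12, or 52.8 and 11.4 CPM, and a ratio of 4.65 (3.93 to 5.53). Inhbe, the activin beta E gene, stood at 3.14 and Wfdc10 at 3.75.

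Genes of intracellular signalling gave 9 members between 3.05 and 5.47. Csnka2ip, named for its interaction with casein kinase 2, had a ratio of 5.47 but rested on 130 reads at P17, against 12 at P12, with an interval of 3.03 to 10.9. Phlda1, a pleckstrin-homology gene induced by growth factors, was firmer at 4.44 (3.70 to 5.37), with 1134 reads at P17 against 129 at P12. Spry2, an inhibitor of receptor tyrosine kinase signalling, had 52.7 CPM at P17, against 15.9 CPM at P12, and a ratio of 3.32. Tradd, the adaptor of tumour necrosis factor receptor 1, stood at 3.53, and C2cd4d at 3.95. Kctd12, an auxiliary subunit of GABA-B receptors, stood at 3.05, the kinase-inhibitor gene Fam212a at 3.10, and Gipc3 and Gpsm3 at 3.18 and 3.10. In RNA metabolism, the tRNA-splicing endonuclease gene Tsen34 stood at 5.03 (3.77 to 6.85), with 508 reads at P17 against 51 at P12. Pabpc4l, a poly(A)-binding protein gene, stood at 3.95 and Mex3b, an RNA-binding ubiquitin ligase gene, at 3.04.

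The 9 genes named for enzymes include Hyi, which RefSeq annotates as a transcribed pseudogene. Galt, the transferase of galactose breakdown, had the highest ratio at 4.54 (3.23 to 6.57), with 333 reads at P17 against 37 at P12. Chst14, a sulfotransferase of dermatan sulfate, followed at 4.36, the peroxide-reducing Gpx1 at 4.28 and Hpdl at 4.13. The mitochondrial sirtuin gene Sirt4 had the most reads of the group, 745 at P17 against 119 at P12, at 3.16. Hyi, Ppapdc2, Gstp2 and Dcxr stood at 3.55, 3.38, 3.11 and 3.04.

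Genes of the cytoskeleton, chromosomes, organelles and protein handling gave 11 members. Mesdc1, which encodes a talin-rod-like protein, led with 1193 reads at P17, against 139 at P12, or 44.7 and 10.3 CPM, at a ratio of 4.33 (3.63 to 5.203). Spata5l1, an AAA-type ATPase gene, and Kif2b, a microtubule-depolymerising kinesin gene, stood at 4.18 and 4.14. The mitochondrial gene Chchd10 was at 3.84, and Hps6, needed for lysosome-related organelles, at 3.66. Cenpb, the protein of the centromere that binds its satellite repeat, and Tuba1a, an alpha-tubulin, both stood at 3.46. Nap1l5, an imprinted retrogene, had 219 reads at P17, against 33 at P12, at 3.35 (2.32 to 4.99). Hspb2, a small heat-shock protein gene, Ptms and the proteasome-activator gene Psme1 stood at 3.39, 3.37 and 3.03.

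The 3 epidermal genes include the member with the most reads. Tchh, which encodes the hair-follicle protein trichohyalin, had 3607 reads at P17, against 580 at P12, or 135 and 43.1 CPM, with a ratio of 3.14 (2.88 to 3.43); no other member had as many reads at either stage. Lor, the gene of the cornified-envelope protein loricrin, had 1692 reads at P17, against 267 at P12, or 63.5 and 19.8 CPM, at 3.20 (2.81 to 3.65). Lgals7, the epidermal galectin-7 gene, had 508 reads at P17, against 75 at P12, at 3.42. A further 6 protein-coding members form a rest group in the sorting by role, and their functions are not described here. Ppdpf stood at 5.21 (3.25 to 8.84), with 196 reads at P17 against 19 at P12. Fam181b, Acbd4, Nxnl2, Tlcd2 and Prr13 stood at 3.39, 3.38, 3.37, 3.36 and 3.28.

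**Figure D3:**
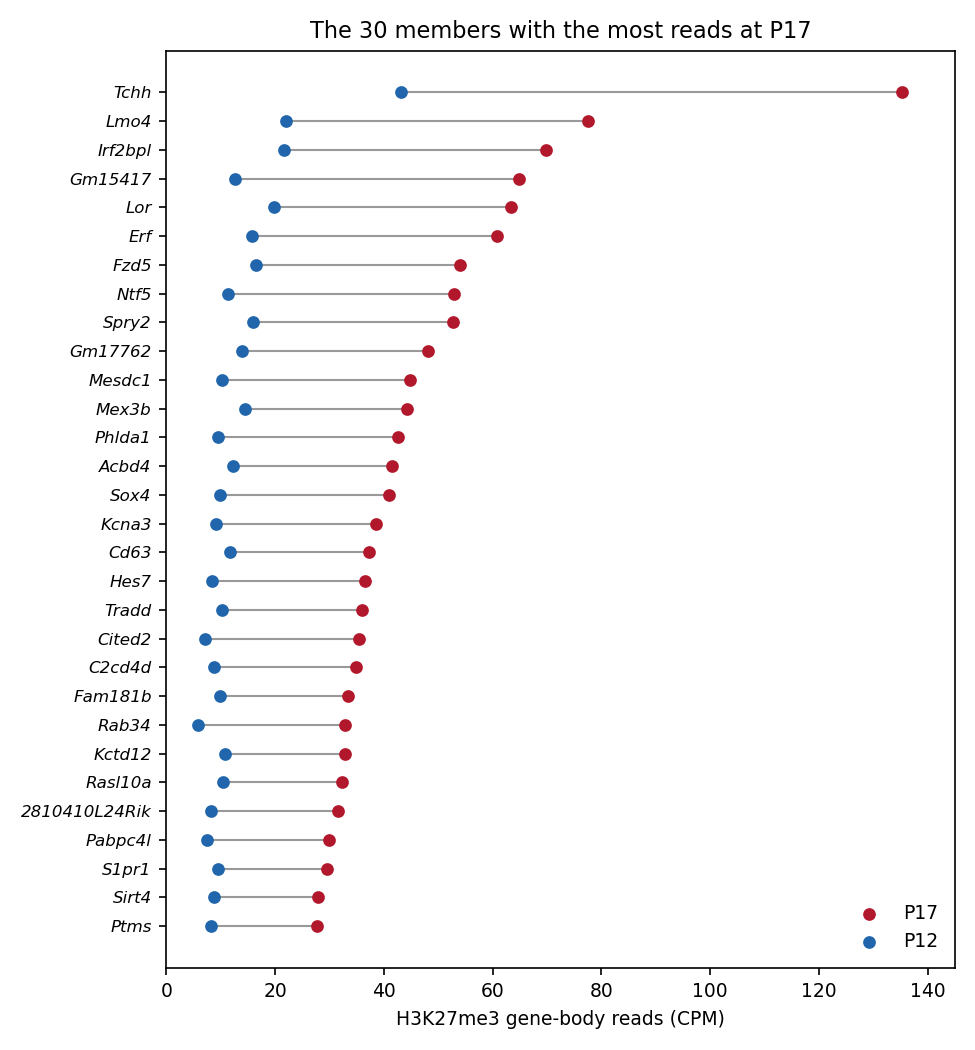
H3K27me3 gene-body reads in CPM at P17 (red) and P12 (blue) for the 30 members with the most reads at P17, joined by a line per gene. Tchh had 135 CPM at P17 and 43.1 CPM at P12; the other 29 genes lie between 27.8 and 77.6 CPM at P17, and levels are not divided by gene length.

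The remaining 21 members are RIKEN, predicted or microRNA entries. The highest ratio of all members belonged to 0610038B21Rik, annotated as a long noncoding RNA, with 415 reads at P17, against 37 at P12, or 15.6 and 2.75 CPM, at 5.66 (4.04 to 8.16). Gm15417 had more reads, 1728 at P17 against 170 at P12, or 64.8 and 12.6 CPM, at 5.13 (4.38 to 6.04). 1110054M08Rik, now named Lppos, stood at 5.14, Gm13375 at 4.996 and 4921530L21Rik, now Spertl, at 4.76. The protein-coding entries 1700106J16Rik, now Ccdc182, and 1810010D01Rik, now Smim38, stood at 4.63 and 4.19. The long noncoding 2310034G01Rik, 1810012K16Rik, 2810410L24Rik, B430319G15Rik and 8430423G03Rik stood at 4.60, 4.30, 3.83, 3.71 and 3.38, and the pseudogenes Gm4349, Gm2027, Gm5712 and Gm4971 at 4.47, 3.99, 3.16 and 3.003. Gm6406, 2410012M07Rik and Gm8994 stood at 4.04, 3.41 and 3.12. Gm17762 had 48.1 CPM at P17, against 13.9 CPM at P12, at 3.46. Mir1901, the only microRNA, rested on 96 reads at P17, against 11 at P12, with a ratio of 4.41 and an interval of 2.36 to 9.12. Of the members, 95 were found in a RefSeq gene table, 11 of them under an older name; 79 were annotated as protein-coding, 10 as long noncoding RNA and 5, Hyi included, as transcribed pseudogenes. That is 0.460% of the protein-coding genes with enough reads, 0.699% of the long noncoding RNAs and 2.96% of the transcribed pseudogenes. Reads of Gm6406 and 2410012M07Rik, now Prr23a2 and Prr23a3, of Gm5712, now the Pou5f1 relative Pou5f1-rs4, of Gm8994, now Eif4a3l1, and of Gstp2 and Tuba1a can come from closely similar copies, so their assignment is uncertain.

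Within gene families the ratios were uneven. In 14 families that each hold a member, chosen after the members were known, 67 genes had at least 100 reads, 15 of them members. Their median ratio of 1.498 includes the 15 members, which stand above 3 by the rule. It is therefore not set beside that of all symbols. The 52 that are not members, and so stand at or below 3 by the rule, had a median ratio of 1.28. Of these, 11 (21.2%) stood above 2, beside 2.63% of all symbols, and 18 (34.6%) above 1.5, beside 7.26%. Rap2b at 5.56 stood beside 4 other Rap genes between 0.881 and 1.03. Kcna3 at 4.18 stood beside 6 other Kv1 channel genes between 1.12 and 1.38, and Lmo4 at 3.52 beside other Lmo genes between 1.01 and 1.31. Other families were graded. Of 10 Frizzled genes, Fzd4 and Fzd5 were members, and Fzd7, Fzd1, Fzd9 and Fzd8 followed at 2.83, 2.81, 2.45 and 2.39, while Fzd2 stood at 1.78 and Fzd10, Fzd6 and Fzd3 at 1.06, 0.917 and 0.855. Beside Gadd45g at 3.15, Gadd45b and Gadd45a stood at 2.82 and 2.02. Sox12 stood at 2.803 and Sox11 at 1.26 beside Sox4 at 4.14. The 14 families are not all those with a member, and relatives were picked after their values had been seen. The shares above therefore cover a chosen part and do not measure how relatives of members stand in general. Outside them, Rasd2 stood at 0.989 beside Rasd1, and Kctd8 and Kctd16 at 1.01 and 0.918 beside Kctd12. Tuba1c stood at 2.77 beside Tuba1a.

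**Figure D4:**
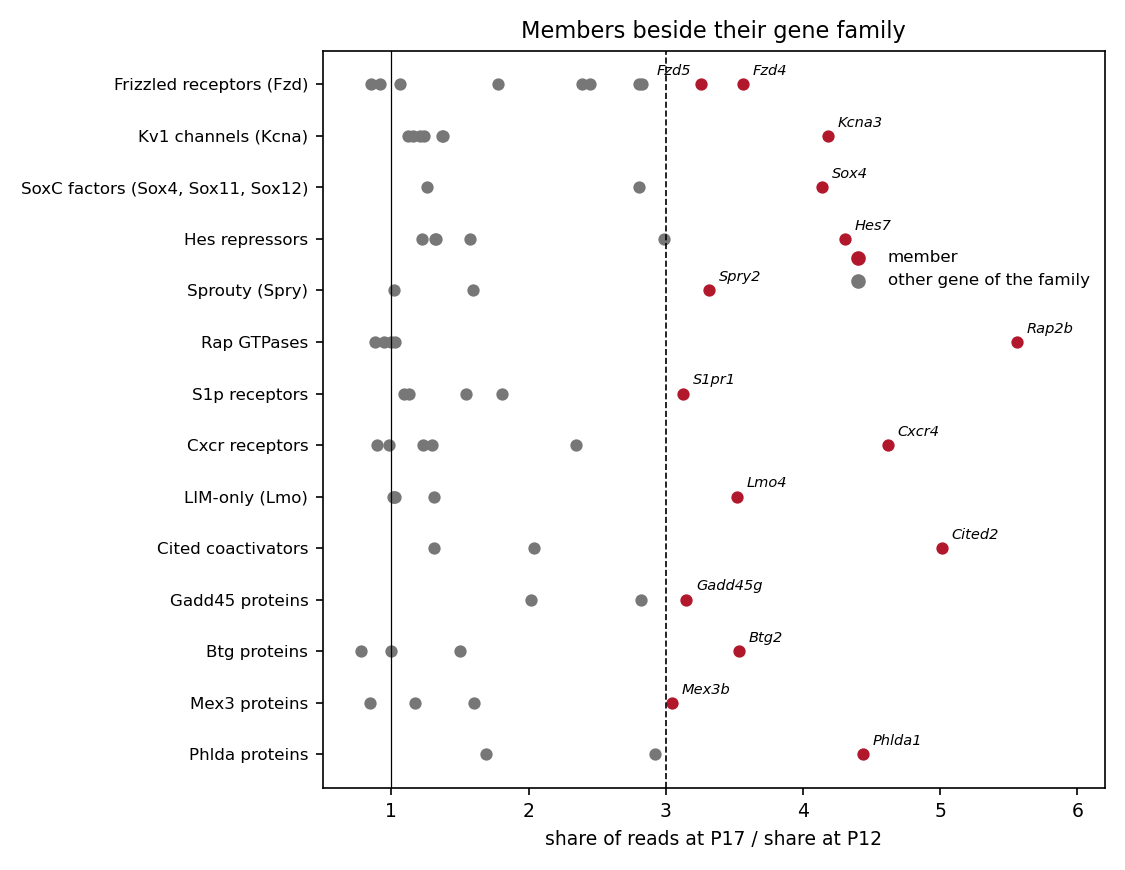
Ratio of the share of H3K27me3 reads at P17 to that at P12 for 14 gene families; red points are members, named, and grey points the other genes of the family with at least 100 reads, with lines at ratios of 1 (solid) and 3 (dashed). Members stand right of 3 by the rule; the relatives of Rap2b, Kcna3 and Lmo4 lie near 1, and those of Fzd4, Fzd5 and Gadd45g reach above 2.

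Among lists of genes by function, the immediate-early genes had a share of members above that of all symbols, as the small GTPases did. Of 46 measured immediate-early genes other than the families set aside, 2 were members, Btg2 and Gadd45g (4.35%, beside 0.507% of all symbols); the list's median ratio was 1.72, beside 0.949 for all symbols, and 17 of its genes (37.0%) stood above 2, beside 2.63%. The lists that follow hold 60 genes or fewer, and at the 0.507% of all symbols a list of that size would mostly hold 0 members, so a count of 0 in them is near the overall share. Among 60 somatic developmental transcription factors 0 were members, with a median of 1.26 and the highest ratio, 2.00, at Sox18. This list was chosen with earlier results known and does not hold the members Hes7, Msgn1 and Sox4, so its count covers only the genes listed. Of 40 genes of the homeobox clusters 0 were members, with a median of 1.32 and a highest ratio of 1.83 at Hoxc4. Of 41 Polycomb and trithorax genes 0 were members, with a median of 0.944, although the PRC1 gene Pcgf2 reached 2.88. The germ cell lists held 0 members among 28 meiotic prophase genes (median 0.884), 19 spermatogonial genes (1.19) and 18 spermiogenesis genes (0.921). Testis somatic markers held 0 members among 9 Sertoli genes (1.53), where Vim was highest at 2.36, and 9 markers of Leydig and other cells (1.001). Cell cycle regulators (29 genes, 0.959) and housekeeping genes (20 genes, 0.932) also held 0.

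Families grouped by symbol were also read beside the 0.507% of all symbols that are members, and most counts were near that share. There were 0 members among 338 genes named Zfp (median ratio 0.931), 362 solute carriers (0.972), 216 genes named Tmem (0.959), 143 genes of the mitochondrial ribosome, import and respiratory chain (0.905) and 106 of RNA splicing and polymerases (0.879). The count was also 0 among 82 genes named Ccn, Cdk or Cdc (0.941), 70 phosphatase subunits (0.958), 57 keratin and keratin-associated genes (0.909) and 22 ribosomal protein genes (0.918). Further families gave a single member each, or between 0.285% and 2.63% of their genes. They were 64 forkhead and Sox factors (Sox4, median 1.29) and 79 heat-shock and chaperone genes (Hspb2, 0.929). Also among them were 351 genes grouped by symbol under the ubiquitin pathway (Kctd12, 0.927). Kctd12 entered by its symbol and is described above as a GABA-B receptor subunit. The last were 198 olfactory and vomeronasal receptors (Olfr314, 0.921) and 38 small RNA entries (Mir1901, 0.793). RIKEN, predicted and unnamed entries gave 20 members of 2473 (0.809%, beside 0.507% of all symbols; median 0.939).

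Most genes beside the members had ratios near 1. In the RefSeq order, the next measured genes on either side of the 95 matched members numbered 190, of which 166 had at least 100 reads; their median ratio was 0.961, 10 of them (6.02%) stood above 2, beside 2.63% of all symbols, and 26 (15.7%) above 1.5, beside 7.26%. The single case in which neighbours were both members was Gm6406 with 2410012M07Rik. Psme1 lay among genes with higher ratios than most, with Psme2 at 2.22 next to it and Emc9, which overlaps it, at 2.76. Beside Dcxr, Rac3 stood at 2.58, and beside 1110054M08Rik, Bcl6 at 2.59. For 22 members the annotation showed another gene overlapping, and the 20 of these genes with enough reads had a median ratio of 1.06, with 3 (15%) above 2, beside 2.63% of all symbols, and 5 (25%) above 1.5, beside 7.26%. Reads of chromatin carry no strand, so reads in such an overlap can count for both genes. The member 0610038B21Rik overlaps Arhgap10, which had 5937 reads at P17, against 2774 at P12, and a ratio of 1.08. Nap1l5 lies inside Herc3, which had a ratio of 1.04 on 1770 reads at P17, against 863 at P12. Gas2l1, around Rasl10a, stood at 2.27 and A930004D18Rik, around Gm17762, at 2.38. In 2 of 8 nested cases, Hspb2 in Cryab and Olfr314 in Fam183b, the member had more P17 reads than the gene around it. The gene models and the counting rule behind the counts are not given, so the reason is not known.

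**Figure D5:**
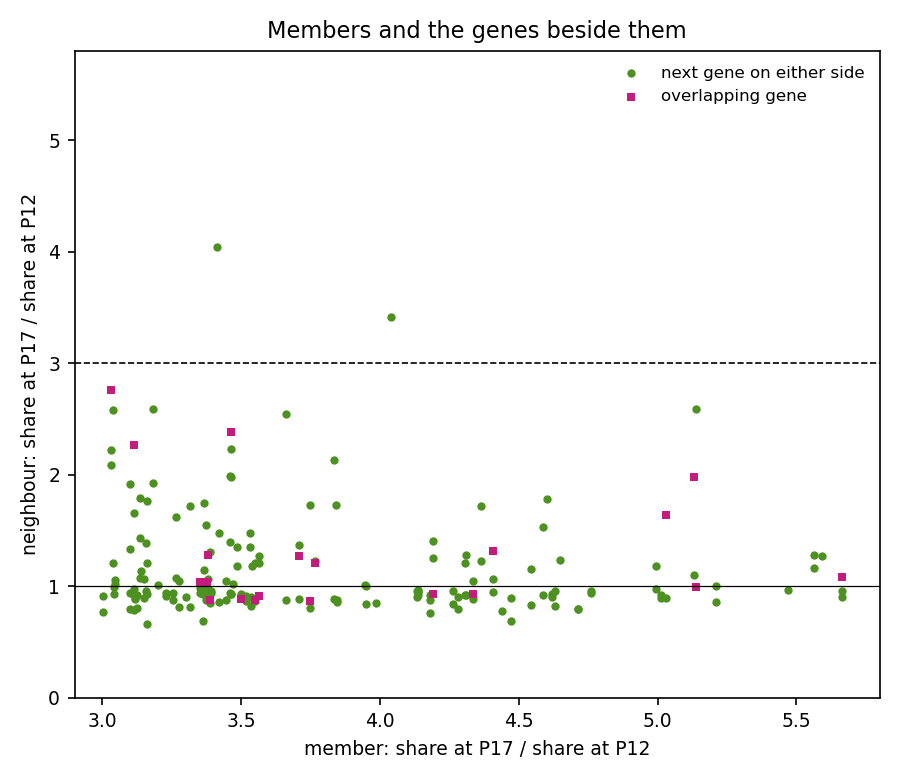
Ratio of P17 to P12 of each member (horizontal axis) against that of its next measured gene on either side (green circles) or of an overlapping gene (magenta squares), for neighbours with at least 100 reads; lines mark ratios of 1 (solid) and 3 (dashed). Most neighbours lie near 1, with medians of 0.961 and 1.06, and the 2 points above 3 are Gm6406 and 2410012M07Rik, each the neighbour of the other.

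Promoters of the members had the base composition of promoters in general. In the 300 bases around the start site (250 before it and 50 after), 70 of 79 protein-coding members with a RefSeq promoter had a median of 15 CG dinucleotides (quartiles 8 and 25.8) and a GC content of 58.9%. Over 13632 protein-coding genes with at least 100 reads and a promoter sequence, the medians were 17 CG dinucleotides (quartiles 7 and 26) and 58.7% GC. Promoters with under 5 CG dinucleotides made up 12.9% of the members and 17.5% of all. Searched on both strands, GGGCGG, the GC box, was in 64.3% of member promoters and 58.1% of all, CCAAT in 35.7% and 42.0%, TATAAA in 10.0% and 11.4%, CACGTG in 5.71% and 10.2%, and TGACGTCA in 4.29% and 2.86%; GGGCGG itself holds a CG that is also counted above.

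The sequences below show how far apart member promoters lie in composition. They are the 200 bases before the start of 3 members with CG-rich promoters, Rap2b, Cited2 and Cxcr4, and of 2 with CG-poor promoters, Csnka2ip and Tchh, from RefSeq on build GRCm38.p6, written 5′ to 3′ on the strand of the gene with each CG in capitals. Rap2b lies at chr3:61364307-61364506 (+ strand), Cited2 at chr10:17723028-17723227 (+ strand), Cxcr4 at chr1:128592300-128592499 (- strand), Csnka2ip at chr16:64602332-64602531 (- strand) and Tchh at chr3:93442130-93442329 (+ strand).
Rap2b: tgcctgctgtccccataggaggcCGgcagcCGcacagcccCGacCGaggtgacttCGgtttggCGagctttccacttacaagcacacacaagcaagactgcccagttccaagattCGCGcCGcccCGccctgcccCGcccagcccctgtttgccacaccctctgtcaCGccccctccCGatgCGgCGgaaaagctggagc
Cited2: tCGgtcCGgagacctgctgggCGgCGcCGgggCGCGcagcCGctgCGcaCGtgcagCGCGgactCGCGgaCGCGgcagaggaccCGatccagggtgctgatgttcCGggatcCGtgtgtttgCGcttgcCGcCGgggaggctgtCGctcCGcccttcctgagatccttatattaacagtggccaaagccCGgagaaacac
Cxcr4: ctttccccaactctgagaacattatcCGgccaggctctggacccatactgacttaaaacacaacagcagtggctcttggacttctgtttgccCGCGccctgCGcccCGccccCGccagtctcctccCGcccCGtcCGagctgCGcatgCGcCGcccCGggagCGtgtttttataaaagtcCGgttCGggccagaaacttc
Csnka2ip: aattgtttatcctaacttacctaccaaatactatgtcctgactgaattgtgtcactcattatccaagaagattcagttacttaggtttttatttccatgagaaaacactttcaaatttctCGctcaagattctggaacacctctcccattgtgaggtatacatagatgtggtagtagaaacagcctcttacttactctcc
Tchh: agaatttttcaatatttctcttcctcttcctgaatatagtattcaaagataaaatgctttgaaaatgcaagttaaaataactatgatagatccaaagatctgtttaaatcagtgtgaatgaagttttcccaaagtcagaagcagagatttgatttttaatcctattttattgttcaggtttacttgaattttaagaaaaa
These windows hold 15, 25, 16, 1 and 0 CG dinucleotides in the order printed. Among all 96 members the ratio had a Spearman correlation of -0.23 with the P12 level and -0.04 with the P17 level. Both are given as a description, since members share both libraries and were selected on the ratio. The ratio is also the P17 level divided by the P12 level, so both correlations are partly built in.

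The 12 symbols set aside by name had ratios between 3.10 for Jund and 5.92 for Zfp36. Ier2 had 909 reads at P17, against 81 at P12, at 5.67, and Zfp36l2 830 at P17, against 80 at P12, at 5.24. Zfp36, Ier2 and Zfp36l2 encode immediate-early regulators, and the other symbols set aside include Fos, Junb and 3 histone genes.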

How the data were processed

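Per the submitters' processing notes, reads were aligned to mm9 with Bowtie and handled with SAMtools and HTSeq, with no version or role given. The authors deposited whole-number read counts over gene bodies, 1 row per symbol entry; the names of the files give multiBamCov as the counter, and nothing in the sources used here records scaling or subtraction of input. Totals were 26664736 reads at P17 and 13462873 at P12. Of 23530 entries, 310 belonged to 146 symbols listed several times; they stayed in the totals and out of per-gene work. From these counts the share of the total, the ratio of shares and its exact (Clopper-Pearson) 95% interval were computed with Python 3.11.15, scipy 1.17.1 and pandas 2.3.3. PCR copies are not independent molecules, so intervals cover counting error only. With 1 file per stage no test was run. The procedure was tested on simulated counts that varied by counting error only, so variation between libraries was not covered. Membership, the gene lists and the families were chosen with earlier results of these data known.

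Genes named in the text are the members with the 12 highest ratios, the 12 with the highest P17 level and the 8 with the most reads, members in a list, genes next to the limits and members with member neighbours; the other members are named so that nearly all are accounted for, and a result on 2 small GTPase genes is not reported here, and relatives and other neighbours were picked after their values had been seen. Names, gene order and promoters came from RefSeq GRCm38.p6, by symbol or by a synonym of 1 gene (23071 of 23220 symbols). No RefSeq gene coordinates were set against the mm9 files. Promoter values are the mean over a gene's listed starts, for protein-coding genes outside chromosome 18, which was not used here; 88.6% of members and 81.6% of all such genes had one. Alternatives were TMM factors (edgeR 4.0.16), median-of-ratios factors, totals without multicopy entries, other limits and a pseudocount of 1 read. Peaks on mm9 were not placed on genes here.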

Additional observations from a re-analysis of the deposited data

How the results depend on the processing

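With TMM, median-of-ratios or all-gene-median scaling, 116, 121 and 118 genes were members and all 96 were among them. These scalings raise every ratio, by factors of 1.053, 1.056 and 1.054, so no member could drop out. With totals without multicopy entries 95 were members, and with a pseudocount 94. Limits mattered more: a fold of 2.5 gave 212 genes, a fold of 4 gave 34, a minimum of 1 read gave 365, a minimum of 50 gave 98 and of 200 gave 86, and an interval wholly above 3 gave 34. All 480 alternative ratios of single members stayed inside their counting interval. Each scaling multiplies every ratio by the same factor, between 0.992 and 1.06, so this outcome follows largely from the small size of the factors. Of 270 alternative counts of members in lists, 36 differed by over 1.5 times; at a fold of 4, or with an interval wholly above 3, 2 small GTPases remained, Rab34 and Rap2b, and 0 immediate-early genes, while with TMM 4 immediate-early genes were members. Pcgf2 was a member with TMM scaling. Median promoter values fell outside the quartiles of the members only with a minimum of 1 read. They were then 46.7% GC and 3 CG dinucleotides. The highest medians in any alternative were 60.7% GC and 15.75 CG dinucleotides. With under 50 reads at P12 in 36 members, depth limits single ratios. No paired analysis was possible because each stage has 1 file, which also leaves no replicate to leave out.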
